A study of Mus musculus with 16 samples.

Results

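The writers and erasers of N6-methyladenosine (m6A) were followed in MC38 cells, a mouse colon adenocarcinoma line. The set holds 10 genes, chosen by symbol for their known roles and not by a cut on their values, though earlier results of these data were known. They are Mettl3 and Mettl14 (catalytic core), Wtap, Virma, Rbm15, Rbm15b, Zc3h13 and Cbll1 (adaptors), and Fto and Alkbh5 (demethylases). All 10 were found among the 55401 genes of the count table and all 10 passed the filter on low counts, which left 18969 genes tested. Their peaks were the entries of 3 deposited peak lists that carry the gene's Ensembl identifier.

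The study set a Ythdf2-KO genotype of this line against WT and located m6A sites and YTHDF2-bound RNAs. The sample titles tag the WT cells gNC and the Ythdf2-KO cells gY2, read here as guide names, so the WT cells may have carried a control guide. All cells were grown as cultures of the tumour line, and the labels do not say whether the knockout is a clone or a pool. Each group had 3 input libraries and 3 m6A immunoprecipitation libraries, and WT cells had 2 YTHDF2 RNA immunoprecipitation (RIP) libraries with 2 inputs. Gene counts were analysed for the 6 input libraries, and 1 peak list without replicates was at hand for m6A in WT, for m6A in Ythdf2-KO and for RIP.

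As background, m6A is placed on mRNA in the nucleus by a complex in which METTL3 transfers the methyl group and METTL14 holds the RNA substrate. WTAP, VIRMA, ZC3H13, CBLL1 (also called HAKAI) and the RBM15 paralogs position that core on its targets, mostly near stop codons and in long exons, at a motif called DRACH. FTO and ALKBH5 are dioxygenases that remove the mark, and YTHDF2 is a cytoplasmic reader that brings marked mRNA to deadenylation and decay.

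Total counts per input library ran from 45441281 to 50959555, so that 3 counts correspond to 0.0582 to 0.0652 CPM (read counts scaled to the library total). Ythdf2-KO replicate 1 stood apart. Its score on principal component 1, which held 51.4% of variance, was -10.4, with WT at -39.2 to -38.6 and the other Ythdf2-KO libraries at 63.2 and 64.1. Ythdf2 was read at 55.6 to 68.6 CPM in WT and 59.8 to 67.9 CPM in Ythdf2-KO (edgeR adjusted p = 0.809), which does not check the knockout, so the group is named by its label. The defining epithelial markers Epcam and Krt18 had 0 counts in every library, and the 9 epithelial and colon markers summed to 1.20 to 1.38 CPM in WT and 0.873 to 1.26 CPM in Ythdf2-KO. The 10 fibroblast markers summed to 2120 to 2679 CPM in WT and 1505 to 2644 CPM in Ythdf2-KO, with 1 of 8 tested (Dcn) called lower. Col3a1 made up most of this sum (1796 to 2314 CPM in WT and 1245 to 2348 CPM in Ythdf2-KO). Thy1 and Acta2 did not exceed 0.102 and 0.155 CPM in any library. The 11 leukocyte markers summed to 13.0 to 15.0 CPM in WT and 7.30 to 11.1 CPM in Ythdf2-KO, with 1 of 3 tested (Cd3d) called lower. Lyz2 made up most of the leukocyte sum (10.9 to 13.2 CPM in WT and 6.54 to 9.79 CPM in Ythdf2-KO). Of the endothelial markers, 0 of 3 tested were called (1 at an unadjusted edgeR p below 0.05). The part of all these markers in the member results was not tested. In bulk RNA, fewer expressing cells and less RNA per cell cannot be told apart.

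Sequences from the member transcripts show what the peaks contained. GGACT, a common form of the m6A motif, is shown first for Wtap, whose peaks fall on alternative ends of its transcript (Wtap-203, and Wtap-204 with an earlier stop codon), and for Mettl3, the member with no peak in any list. For Wtap, only GGACT inside an m6A peak of both lists is shown. Other Wtap GGACT lay outside the WT m6A peaks, at bases 43, 1796 and 1843 of Wtap-203 and 1344, 2191 and 3126 of Wtap-204. Each window runs 5′ to 3′ on the transcript strand (GENCODE M21, GRCm38, the assembly of mm10), with the motif in capitals.
Wtap, coding, in the distal m6A peak of both lists, chr17:12967885-12967913, minus strand: caagtaccagcaGGACTacatcttctgaa
Wtap, coding, in the distal m6A peak of both lists, chr17:12967488-12967516, minus strand: tcagaatggcttGGACTcaaatgtaaatg
Wtap, 3′ UTR of Wtap-204, in the proximal m6A peak of both lists and in the RIP peak, chr17:12975048-12975076, minus strand: cctgatgccgtcGGACTattccgaagaag
Wtap, 3′ UTR of Wtap-204, in the proximal m6A peak of both lists and in the RIP peak, chr17:12974763-12974791, minus strand: caataagactgtGGACTtcatgattgttg
Wtap, 3′ UTR of Wtap-204, in the proximal m6A peak of both lists and in the RIP peak, chr17:12974703-12974731, minus strand: tttgcctttaaaGGACTtacttatgctaa
Mettl3, coding, in no peak, chr14:52304927-52304955, minus strand: taagaaacagctGGACTcgcttcgcgaga
Mettl3, coding, in no peak, chr14:52304888-52304916, minus strand: gcgacggaagcaGGACTctgggcacttgg
Mettl3, coding, in no peak, chr14:52296524-52296552, minus strand: caaccagggcctGGACTgcgatgtgattg
Mettl3, 3′ UTR, in no peak, chr14:52294906-52294934, minus strand: cacaccttaagaGGACTgtttacgcaata

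For 5 other members, the window shown is around a motif of a strong WT m6A peak, using GGACT where the peak had it and otherwise the GGAC core. The GGAC of the Zc3h13 window is followed by G, so it is not a DRACH match as defined below. The Zc3h13 peak that holds it had 33 DRACH. No window is shown for Virma, Mettl14 or Rbm15. In Mettl14 and Rbm15 the WT m6A peak with the smallest score held DRACH but no GGAC.
Rbm15b, coding, also under a RIP peak, chr9:106885317-106885345, minus strand: ctttttggaaggGGACTggaccagcctca
Alkbh5, 3′ UTR, with the motif starting 18 bases after the stop codon, outside every RIP peak, chr11:60554421-60554449, plus strand: tgtgccctcttgGGACTctggctaatcct
Zc3h13, coding, with no RIP peak in the gene, chr14:75328044-75328071, plus strand: gataaagacaagGGACgcgatgaccgga
Cbll1, coding, also under a RIP peak, chr12:31487527-31487554, minus strand: catcctcctccaGGACcccctccacctc
Fto, coding, with no RIP peak in the gene, chr8:91409651-91409678, plus strand: cgatgatgaagtGGACcttaagagcaga

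A motif match is a description of the letters and not a mapped site. GGACT was present in 11 of the 27 member peaks of the WT m6A list (40.7%) and in 34.6% of all peaks of that list with sequence. The share rises with width, from 32.1% of WT m6A peaks of 200 to 300 bases to 66.1% of those of 800 to 1000 bases. DRACH (A, G or T, then A or G, then A, C, and last A, C or T, searched on the transcript strand, GGACT included) was in all 27 member WT peaks and in 96.5% of all. Its density was 27.2 per kb in member peaks and 24.3 per kb in all WT m6A peaks. That of the GGAC core, counted whatever base followed it, was 6.89 and 5.31 per kb.

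Input levels were first compared per transcript length, in CPM per kb of each gene's reference transcript, the one with the longest coding sequence. In WT cells Wtap was the highest member, at 42.4 ± 0.399 CPM per kb (SD, n = 3). Alkbh5 followed at 26.3 ± 2.18 and Fto at 23.1 ± 0.393 CPM per kb (SD, n = 3). On this scale both erasers stood above both genes of the catalytic core. Mettl14 (16.9 ± 1.76) and Mettl3 (15.9 ± 0.180) were next, and their WT libraries overlapped, so their order on this scale is not separated by the replicate spread. Virma (10.4 ± 0.660), Zc3h13 (7.10 ± 0.323), Rbm15 (5.83 ± 0.425), Cbll1 (3.91 ± 0.155) and Rbm15b (3.03 ± 0.409) formed the lower end, each without overlap with its neighbour in WT. The order depends on the length used. With the union of all annotated exons Alkbh5 came first (25.2 CPM per kb), followed by Wtap (14.0), Virma (9.55) and Zc3h13 (6.94), and Fto (6.33), Mettl3 (6.32) and Mettl14 (6.24) were close together.

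**Figure D1:**
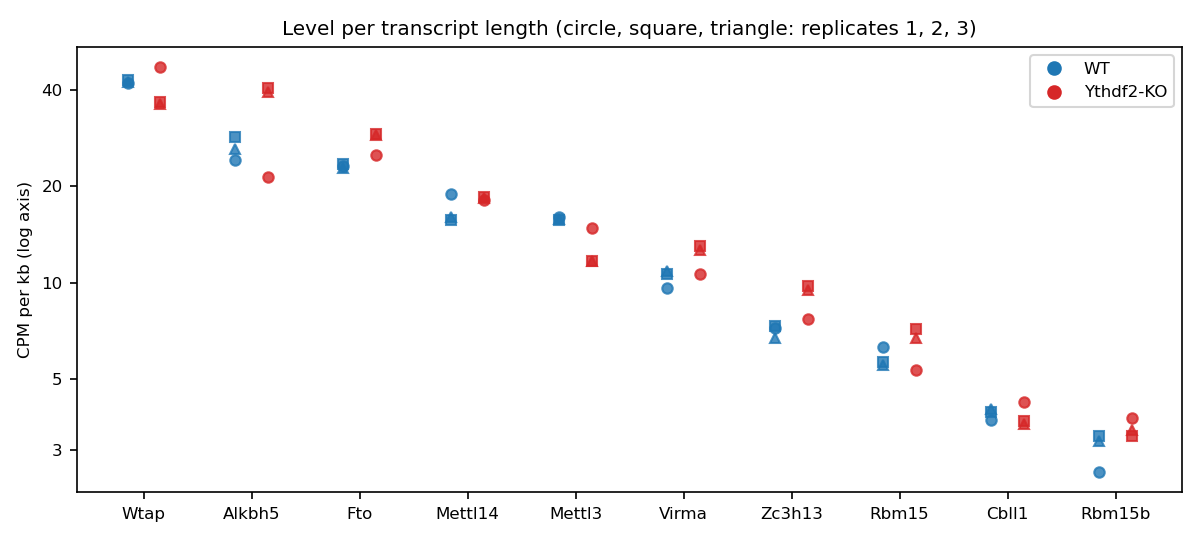
Input level of each member in CPM per kb of reference transcript (log axis), ordered by the WT mean, with 1 point per library (3 WT, 3 Ythdf2-KO). Wtap, Alkbh5 and Fto lie above Mettl14 and Mettl3, whose WT points overlap, and Rbm15b is lowest at 3.03 CPM per kb in WT.

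Ythdf2-KO input was then compared with WT input, which asks whether the m6A machinery itself differs in level between the groups. None of the 10 members passed the edgeR test with all 6 libraries (adjusted p 0.0905 to 0.934), against 4.54% of all genes tested. At an unadjusted edgeR p below 0.05 there were 3 of 10 (Mettl3, Zc3h13 and Fto), against 29.5% of all genes tested, so this share is near the background. These are also the 3 of 10 members whose WT and Ythdf2-KO values did not overlap, a separation that 33.8% of tested genes had. DESeq2 called 2 of 10 (Zc3h13 and Fto, both higher), where it called 18.9% of all genes. Of the 10 members, 7 were above 0 and 3 below, and their median log2 fold change was 0.18 where that of all tested genes was -0.01. Values below are CPM in WT replicates 1, 2 and 3 and then in Ythdf2-KO replicates 1, 2 and 3.

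**Figure D2:**
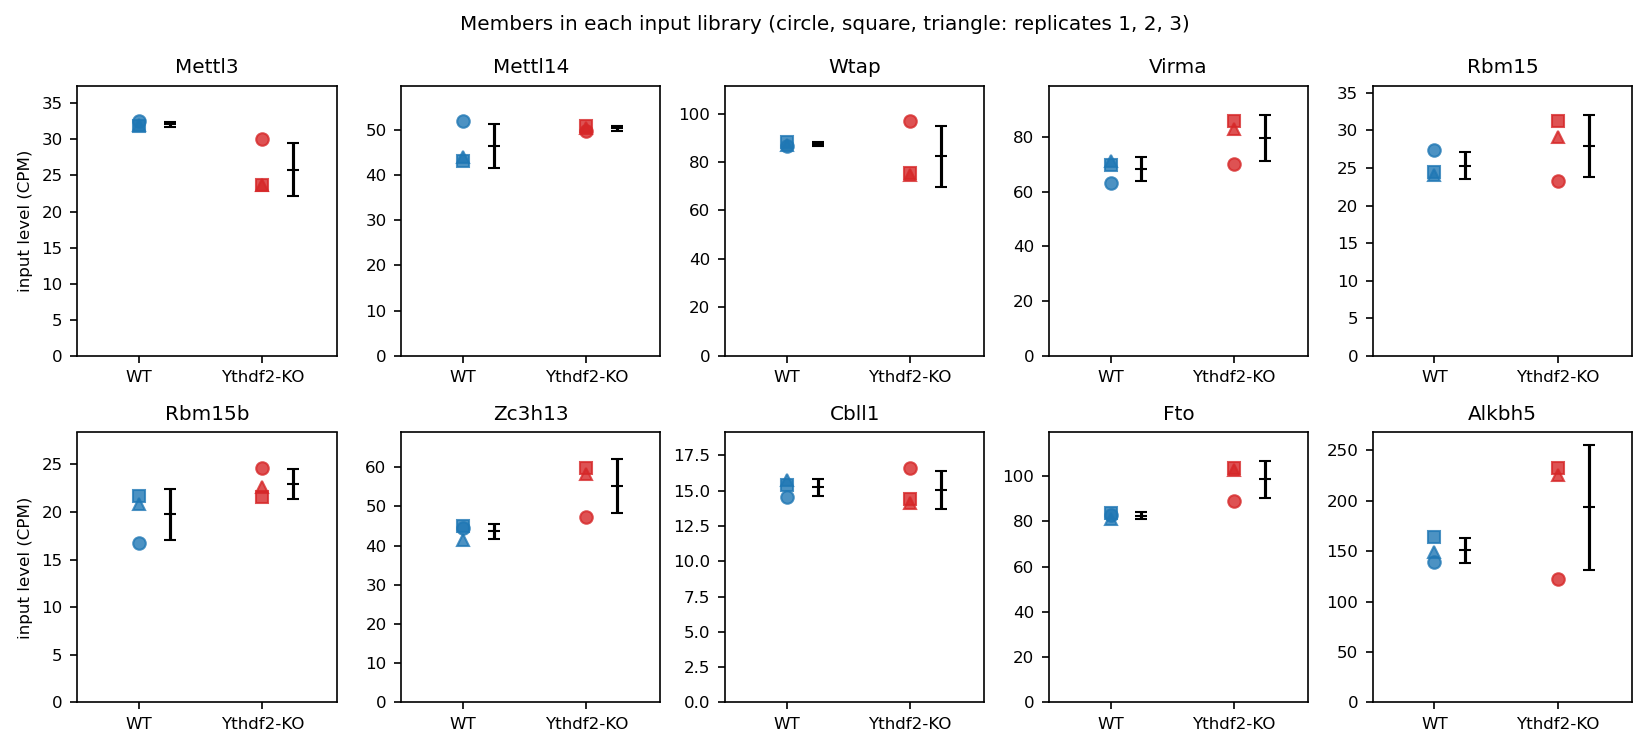
Input CPM of each member in every library, with 1 panel per gene (WT in blue, Ythdf2-KO in red) and the group mean ± SD (n = 3) beside the points. Ythdf2-KO replicate 1 (red circle) lies nearer to the WT mean than the other Ythdf2-KO libraries do in 8 of 10 members, and Alkbh5 shows the widest gap (122 against 233 and 226 CPM).

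Mettl3 (ENSMUSG00000022160.18, chr14:52294841-52305128, minus strand), the methyl-transferring subunit, measured 32.5, 31.8 and 32.0 CPM in WT and 30.1, 23.6 and 23.7 CPM in Ythdf2-KO. All Ythdf2-KO libraries were below all WT libraries, and replicate 1 was close to the WT values. The log2 fold change was -0.32 (SE 0.116, edgeR adjusted p = 0.126). Mettl3 overlaps Tox4 on the other strand, and the strand setting of the counting is not given, so its reads could include some of Tox4.

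Mettl14 (ENSMUSG00000028114.16, chr3:123368297-123386108, minus strand), the RNA-binding partner, measured 51.9, 43.1 and 44.0 CPM in WT and 49.6, 50.8 and 50.4 CPM in Ythdf2-KO. WT replicate 1 was the highest of the 6 libraries, and the groups overlapped. Its log2 fold change was 0.12 (SE 0.0920, edgeR adjusted p = 0.426). The ratio of Mettl3 to Mettl14 CPM was 0.627, 0.739 and 0.726 in the WT libraries. In the Ythdf2-KO libraries it was 0.606, 0.466 and 0.470. It was lower in every Ythdf2-KO library than in every WT library, with replicates 1 of the groups lying next to each other. Mettl3 alone separated the groups too, and 33.8% of tested genes did in either direction. No such share was computed for ratios.

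Among the adaptors, Zc3h13 (ENSMUSG00000022000.11, chr14:75284373-75344426, plus strand), a zinc finger protein that helps keep the complex in the nucleus, had the largest fold change estimate. It measured 44.6, 44.9 and 41.3 CPM in WT and 47.2, 59.8 and 58.2 CPM in Ythdf2-KO. The groups did not overlap, and replicate 1 was the lowest Ythdf2-KO library. The log2 fold change was 0.34 (SE 0.107, edgeR adjusted p = 0.0942, DESeq2 adjusted p = 0.0351).

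Wtap (ENSMUSG00000060475.13, chr17:12966796-12994169, minus strand), which links the core to the other adaptors, measured 86.6, 88.2 and 87.0 CPM in WT and 96.8, 75.5 and 74.6 CPM in Ythdf2-KO. Replicate 1 lay above all WT libraries and the other Ythdf2-KO libraries below them, so the groups overlapped. The log2 fold change was -0.08 (SE 0.109, edgeR adjusted p = 0.642).

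Virma (ENSMUSG00000040720.15, chr4:11485958-11550684, plus strand), the large scaffold of the complex, measured 63.2, 69.9 and 71.4 CPM in WT and 70.0, 85.8 and 83.0 CPM in Ythdf2-KO. Replicate 1 fell within the WT range, and the other Ythdf2-KO libraries exceeded it. Its log2 fold change was 0.22 (SE 0.0973, edgeR adjusted p = 0.176).

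The paralogs Rbm15 and Rbm15b bind RNA and recruit the complex to it. Rbm15 (ENSMUSG00000048109.10, chr3:107325421-107333673, minus strand) measured 27.4, 24.5 and 24.0 CPM in WT and 23.3, 31.2 and 29.2 CPM in Ythdf2-KO. Here Ythdf2-KO replicate 1 was the lowest of all libraries, and the log2 fold change was 0.14 (SE 0.130, edgeR adjusted p = 0.512). Rbm15b (ENSMUSG00000074102.4, chr9:106880918-106887428, minus strand) measured 16.7, 21.7 and 20.9 CPM in WT and 24.7, 21.6 and 22.6 CPM in Ythdf2-KO. WT replicate 1 was the lowest of the 6 libraries, the groups overlapped, and the log2 fold change was 0.22 (SE 0.127, edgeR adjusted p = 0.290). Rbm15b shares bases with Manf on its own strand and with Dcaf1 on the other, so its counts are uncertain.

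Cbll1 (ENSMUSG00000020659.16, chr12:31484829-31499616, minus strand), a RING-finger subunit, had the smallest estimate. It measured 14.6, 15.4 and 15.8 CPM in WT and 16.6, 14.4 and 14.1 CPM in Ythdf2-KO. The log2 fold change was -0.02, with a 95% interval of -0.28 to 0.24 (edgeR adjusted p = 0.934), and its sign turned when WT replicate 3, Ythdf2-KO replicate 2 or Ythdf2-KO replicate 3 was left out. An antisense gene, Gm29542, overlaps it.

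Of the erasers, Fto (ENSMUSG00000055932.15, chr8:91313525-91668439, plus strand) measured 82.7, 83.8 and 81.0 CPM in WT and 89.1, 104 and 103 CPM in Ythdf2-KO. The groups did not overlap. The log2 fold change was 0.26 (SE 0.0791, edgeR adjusted p = 0.0905, DESeq2 adjusted p = 0.0374). Genes on the other strand (Gm45427 and 4831440D22Rik) lie within Fto.

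Alkbh5 (ENSMUSG00000042650.3, chr11:60536381-60558512, plus strand), the member with most reads, measured 139, 164 and 150 CPM in WT and 122, 233 and 226 CPM in Ythdf2-KO. Replicate 1 was the lowest of all 6 libraries and the other Ythdf2-KO libraries were the highest. The log2 fold change of 0.36 therefore had the widest error of the set (SE 0.228, 95% interval -0.17 to 0.90, edgeR adjusted p = 0.326). The genes whose 6 input values followed Alkbh5 most closely were Fam110b (Pearson r = 0.999), Efhd2 (0.998) and Rasgef1a (0.998), on log2 CPM over 6 libraries that share the same split. There were 403 genes with r above 0.95.

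Without Ythdf2-KO replicate 1, edgeR called 6 of 10 members, where it called 35.4% of all genes tested. Mettl3 (log2 fold change -0.44, adjusted p = 0.00351) and Wtap (-0.22, adjusted p = 0.0193) were lower. Alkbh5 (0.61, adjusted p = 0.00147), Zc3h13 (0.44, adjusted p = 0.00232), Fto (0.32, adjusted p = 0.00357) and Virma (0.31, adjusted p = 0.0128) were higher. Mettl14, Rbm15, Rbm15b and Cbll1 did not pass (adjusted p 0.0643 to 0.488). Without replicate 1 of either group, a choice made after seeing the data, 8 of 10 were called, where 46.5% of all genes tested were, with Mettl14 (0.21) and Rbm15 (0.31) added on the higher side. Leaving out any other single library called 0 of 10. Those fits called few genes at all, from 0 without WT replicate 2 to 53 higher and 40 lower of 19539 without WT replicate 1. The marker lists moved in the fit without Ythdf2-KO replicate 1. There 7 of 8 tested fibroblast markers were lower and 1 higher, and 3 of 3 tested leukocyte markers were lower. Of the tested endothelial markers 1 of 3 (Cdh5) was higher, and 0 of 2 tested epithelial markers were called (0 at an unadjusted edgeR p below 0.05). Their part in the member calls was not tested.

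**Figure D3:**
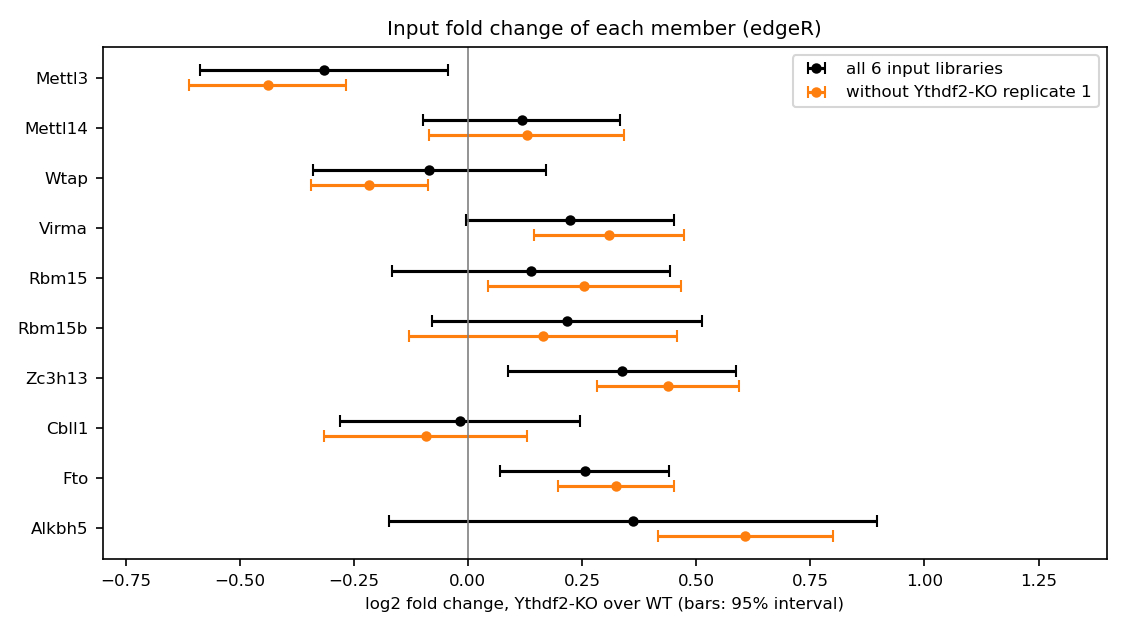
Log2 fold change of each member, Ythdf2-KO over WT input, with 95% intervals from edgeR, using all 6 libraries (black) and without Ythdf2-KO replicate 1 (orange). With all libraries the intervals of Mettl3, Zc3h13 and Fto exclude 0 before adjustment, and without replicate 1 Alkbh5 moves from 0.36 to 0.61 with a narrower interval.

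The rest of the pathway gave 0 called genes with 6 libraries in each of 3 lists. Among other N6-adenosine methyltransferases and genes of S-adenosylmethionine supply, 0 of 11 were called (3 at an unadjusted edgeR p below 0.05, 2 lower with DESeq2), with a median log2 fold change of 0.08. Of 10 readers, 9 were tested and 0 called (2 at an unadjusted edgeR p below 0.05, 1 higher with DESeq2), with a median of 0.05. Of the other AlkB dioxygenases, 0 of 7 were called (0 at an unadjusted edgeR p below 0.05, 0 with DESeq2), with a median of -0.16. The unadjusted counts were not above the 29.5% of all genes tested that lay below this p. DESeq2 called 18.9% of all genes tested. Without Ythdf2-KO replicate 1, edgeR at an adjusted p below 0.05 called 35.4% of all genes tested. In the 3 lists, in the same order, its calls were 2 higher and 3 lower, 1 higher and 0 lower, and 0 higher and 3 lower.

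The m6A lists asked whether the transcripts of the machinery carry the mark. In WT, 9 of 10 members had at least 1 m6A peak, where 48.7% of tested genes and 64.1% of tested protein-coding genes did. Among the 7457 protein-coding genes with a WT level within the range of the member means (15.3 to 150.7 CPM) the share was 80.6%. In Ythdf2-KO the same 9 members had one, where 45.0% of tested genes did. The exception was Mettl3, with 0 peaks in all 3 lists. Of 276 tested coding genes with a reference transcript within 20% of the Mettl3 length (2025 bases) and a WT input level within 20% of its own, 79.0% had a WT m6A peak. The Mettl3 transcript held 38 DRACH (18.8 per kb, among members above only Alkbh5 at 16.2) and 4 GGACT. At least 4 GGACT were found in 23.5% of tested coding transcripts of similar length, and at least 1 in 88.5%.

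Across the 9 marked members there were 27 WT and 24 Ythdf2-KO m6A peaks. Of the WT peaks, 25 of 27 (92.6%) overlapped a Ythdf2-KO peak by at least 1 base, where 80.3% of all WT peaks did. Of the Ythdf2-KO peaks, 23 of 24 overlapped a WT peak (all peaks, 89.3%). On the reference transcripts, peak centres lay in coding sequence for 23 of 27 WT peaks (85.2%, all peaks 62.0%), and 4 of 27 lay within 200 bases of the stop codon (14.8%, all peaks 25.7%). Among the coding ones, a Mettl14 peak and a Wtap peak lay wholly or mostly in the 3′ UTR of another annotated transcript. The overlapping Rbm15b peaks were counted separately, and coding length was not matched. With 1 list per group, none of these shares carries a replicate error, and a missing peak may be one that missed the caller's threshold.

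**Figure D4:**
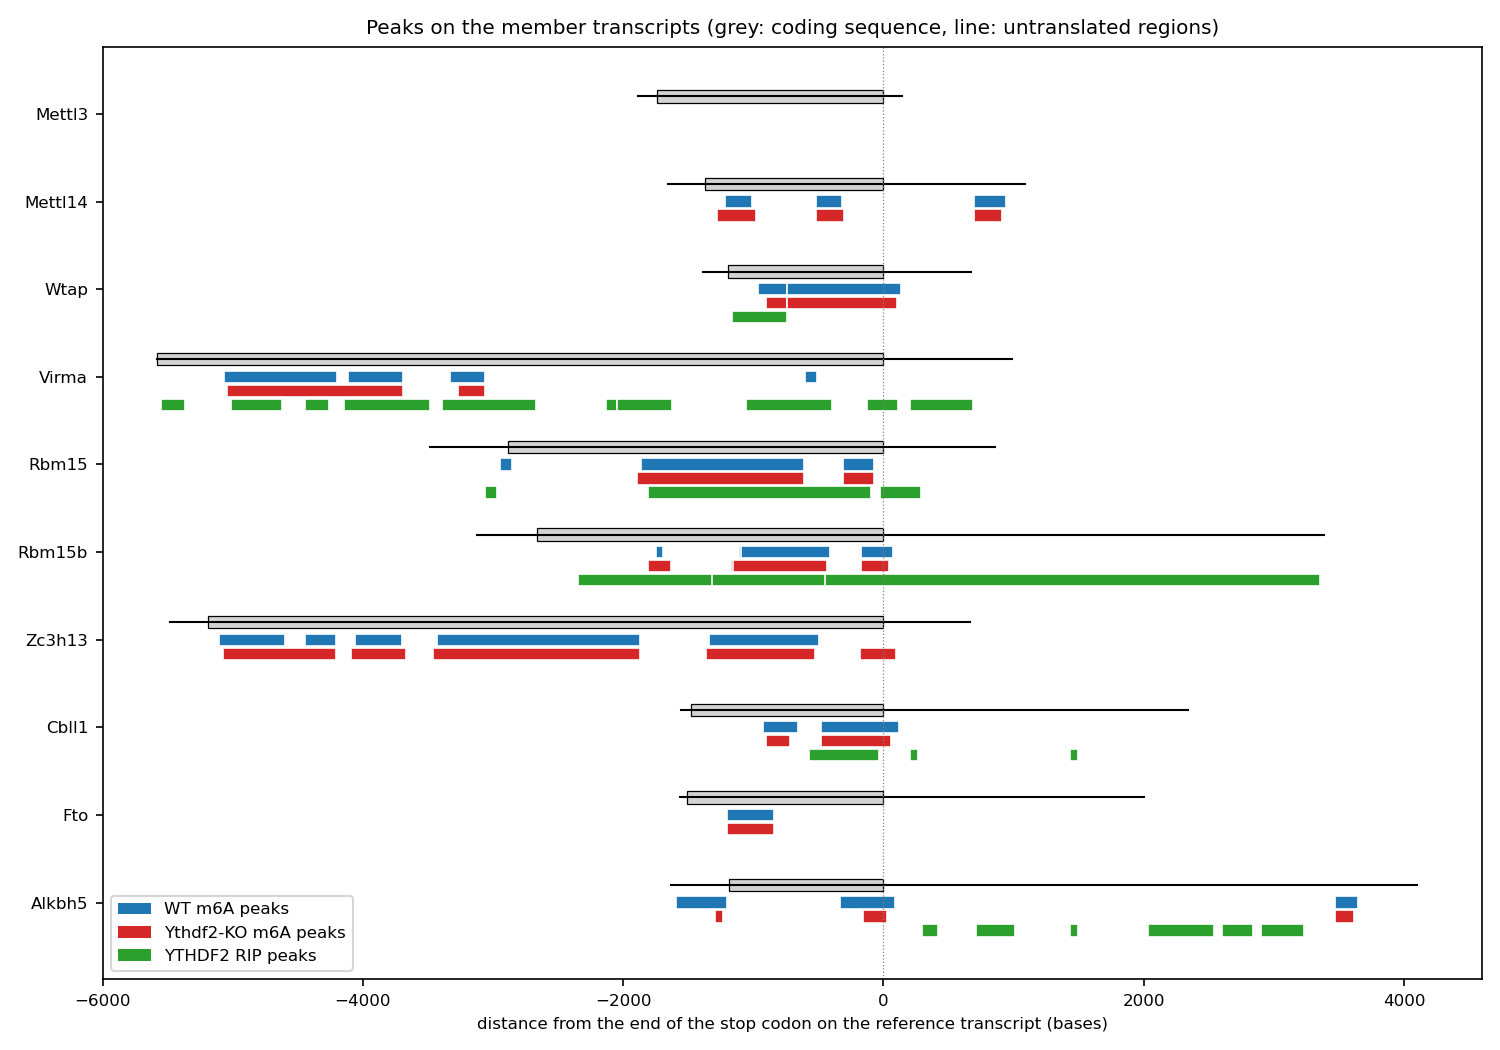
Peaks of each member on its reference transcript, aligned at the end of the stop codon (x axis in bases), with WT m6A in blue, Ythdf2-KO m6A in red and YTHDF2 RIP in green. Peak bases outside that transcript (the 3′ end of Wtap-204, the retained intron of Rbm15) are not drawn. Mettl3 has no peak, Zc3h13 is covered along its coding sequence without RIP peaks, and the 6 RIP peaks of Alkbh5 lie in the 3′ UTR between its m6A peaks.

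Mettl14 had 3 m6A peaks in each list, 2 with centres in coding sequence of the reference transcript and 1 in its 3′ UTR, covering 661 bases in WT and 781 in Ythdf2-KO. The second WT peak (chr3:123371288-123371498) had 198 of its 211 bases in that coding sequence, and all 211 lay in the 3′ UTR of another annotated transcript. Mettl14 had no RIP peak. Zc3h13 was the most widely covered member, with 5 peaks per list over 55.8% of its exon bases in WT and 63.4% in Ythdf2-KO, and it too had no RIP peak. The Ythdf2-KO list added a peak of 271 bases across its stop codon (chr14:75339467-75343858, score 5e-12) that was not in the WT list. Virma held the smallest deposited score among WT member peaks (1e-218), at a peak of 870 coding bases, read as a p-value from its range. Its WT peak of 91 bases further downstream (chr4:11545995-11546085, score 4.4e-07) and a 90-base Rbm15 peak across the start codon (chr3:107333045-107333134, score 1.3e-07) were the 2 WT member peaks with no Ythdf2-KO counterpart. Both were narrow for this list, whose median peak width was 241 bases.

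Fto carried 1 m6A peak, in exon 3 of 9, with the same borders in the WT and Ythdf2-KO lists (chr8:91409406-91409765, 360 bases, scores 6.3e-65 and 6.3e-67). It had no RIP peak. The central 151 bases of this peak are shown because it is the only m6A peak of Fto and did not shift between the lists. The whole peak held 9 DRACH, and the 3 within the printed bases are in capitals (chr8:91409511-91409661, plus strand).
Fto peak centre: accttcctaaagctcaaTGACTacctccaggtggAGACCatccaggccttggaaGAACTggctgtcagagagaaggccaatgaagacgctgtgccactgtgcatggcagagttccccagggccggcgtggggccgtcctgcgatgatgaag
DRACH was present in 99.5% of all WT m6A peaks of 340 to 380 bases.

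Alkbh5 was the member whose peaks narrowed most between the lists. It had 3 peaks in each, over its 5′ UTR, its stop codon and the far 3′ UTR, but these covered 991 bases in WT and 392 in Ythdf2-KO, a ratio of 0.396. The median ratio was 0.968 over the 9 marked members and 0.956 over 8171 tested genes marked in both lists, of which 4.5% were at or below the Alkbh5 value. The 5′ UTR peak went from 390 to 60 bases and the stop codon peak from 420 to 181, while the far 3′ UTR peak went from 181 to 151. The scores did not weaken with the width: that of the 5′ UTR peak was 1.3e-13 in WT and 2e-24 in Ythdf2-KO. Scores from separately called lists cannot show whether methylation changed, and immunoprecipitation depth per library was not analysed here.

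The RIP list asked which of these transcripts YTHDF2 binds. RIP peaks were found for 6 of 10 members (Wtap, Virma, Rbm15, Rbm15b, Cbll1 and Alkbh5), where 34.3% of tested genes and 45.6% of tested protein-coding genes had one. Among the protein-coding genes within the members' range of WT level the share was 58.9%, so that of the members was near it. Among genes with a WT m6A peak the share was 6 of 9 members (66.7%), 60.0% of tested genes and 66.1% of the protein-coding genes in that range. Mettl3, Mettl14, Zc3h13 and Fto had none, so Zc3h13, the most widely m6A-covered member, and the core subunits were outside the list. Of the 27 WT m6A peaks, 12 were overlapped by a RIP peak (44.4%, all peaks 48.3%), and 10 of the 29 RIP peaks overlapped a WT m6A peak (34.5%, all peaks 34.2%).

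For Wtap, the single RIP peak separated its m6A peaks. The proximal WT m6A peak (chr17:12974562-12980865, 957 bases, score 1e-131) lay wholly on Wtap-204, with 227 coding and 730 3′ UTR bases there, while 223 of its bases were on Wtap-203. The RIP peak of 1406 bases (score 1.6e-76) covered 100% of it, including the 3 windows of Wtap-204 printed above. The distal WT m6A peak (chr17:12967334-12972739, 928 bases, score 1e-159), which spans the stop codon of Wtap-203 and holds the 2 coding windows above, had 0% RIP coverage. The count table sums these forms, so their levels were not separated.

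For Alkbh5 the m6A and RIP peaks did not meet. Its 6 RIP peaks, 1563 bases in all, lay in the 3′ UTR, with centres 356 to 3065 bases after the stop codon, and overlapped 0 bases of its m6A peaks. The far 3′ UTR m6A peak was centred 3558 bases after the stop codon, beyond the last of them. In Virma the opposite held: its 10 RIP peaks covered 82.0% of its WT m6A bases, and also reached its stop codon and 3′ UTR, where it had no m6A peak.

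RIP peaks covered 87.6% of the annotated exon bases of Rbm15b, 58.5% of those of Virma and 56.5% of those of Rbm15. In Rbm15b, a gene with 1 exon, a RIP peak of 5705 bases (score 4e-69) spanned most of the exon and so covered 100% of its m6A bases. The overlapping pairs of peaks in Rbm15b share sequence and are not separate sites. In Rbm15, 7 RIP peaks covered 4197 bases, and 4 of the 7 lay wholly outside the spliced transcript, within an annotated retained-intron model. Over all genes, 6.2% of RIP peaks lay off the reference transcript. Its main m6A peak, of 1258 coding bases in WT, was 95.2% covered by RIP. Cbll1 had 3 RIP peaks, of which the largest (539 bases) covered 75.1% of the WT m6A peak at its stop codon, and the other 2 were 60 and 61 bases in the 3′ UTR with weak scores (0.0015 and 7.9e-05).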

How the data were processed

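The authors deposited a gene table of whole-number counts covering the 6 inputs, and 3 peak lists whose score, between 0 and 0.003, was read from its range as a p-value. Per the submitters' processing notes, tools included HISAT2, HOMER and ChIPseeker and the build was mm10. The read counter and its strand setting, the peak caller, and the libraries pooled for each list were not given in the sources used here.

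Counts were tested over 18969 genes with the quasi-likelihood test of edgeR 4.0.16 (TMM, filterByExpr, no covariate, Benjamini-Hochberg at 0.05) in R 4.3.3, with DESeq2 1.42.0 as an alternative. CPM uses TMM-scaled totals, ± is the SD, and the SE is the log2 fold change divided by the square root of F. The script was tested on simulated data. Each peak was placed on its gene's reference transcript in GENCODE M21. Peaks sharing 1 or more exonic bases, strand matched, were counted as overlapping. All 10 members were named, and genes most like a member were named for Alkbh5 by the rule for a set with no called member. Members and lists were chosen with earlier results of these data known. Separate cultures are not stated for the replicates, so the spread that the p-values rest on may be technical. Alternatives were RLE size factors, DESeq2, no low-count filter, a replicate block, libraries left out, and other overlap, score and strand rules for peaks.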

Additional observations from a re-analysis of the deposited data

How the results depend on the processing

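The count of members called in Ythdf2-KO against WT input was 0 with RLE size factors and without the low-count filter, 2 with DESeq2, and 0 to 6 with single libraries left out, the 6 coming without Ythdf2-KO replicate 1. It was 8 without replicate 1 of both groups, a setting chosen after seeing the data. The count over the 3 pathway lists was 0 with all libraries, 3 with DESeq2, 0 to 9 with single libraries left out and 13 without replicate 1 of both groups. These lists held 11, 9 and 7 tested genes. Of all genes tested, 18.9% were called with DESeq2, 35.4% without Ythdf2-KO replicate 1 and 46.5% without replicate 1 of both groups. With a replicate block, 0 members were called. Few genes passed at all in that fit (45 higher and 26 lower of 18969) or without the low-count filter (70 higher and 41 lower of 35049). Same-numbered libraries deviated together only weakly (correlations 0.0494, 0.115 and 0.0502). With deviations taken from means of 3 libraries, these values cannot decide whether the numbers pair the samples. On principal component 2 (15.5% of variance), WT replicate 1 scored 9.67 and Ythdf2-KO replicate 1 scored 50.5. The other libraries scored -27.0 to -6.05, and what replicates 1 share was not tested. Of 110 alternative fold changes of single members, 91 kept their direction and side of the threshold, 16 passed it and 3 reversed. All 3 were Cbll1: 0.0015 without WT replicate 3, 0.014 without Ythdf2-KO replicate 2 and 0.029 without Ythdf2-KO replicate 3, with -0.13 without replicate 1 of both groups as its lowest value. The WT m6A peaks shared with Ythdf2-KO went from 25 to 23 when at least 50% of the peak had to be covered. The 12 under RIP peaks stayed 12 under each overlap, score and strand rule. GGAC, counted whatever base followed it, was in 23 of the 27 peaks that held DRACH.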
